A study of Mus musculus with 20 samples.

Results

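Rora, Ahr, Maf, Il23r, Il17a, Il17f and Il22, 7 genes linked to STAT3 and to the type 17 program of T cells, were followed across all 20 libraries of an RNA-sequencing study of murine CD8+ T cells. They were chosen by symbol, and each of the 7 is represented by 1 transcript among the 31682 transcripts (23992 gene symbols) listed. CD8+ T cells from spleens of C57BL/6 mice aged 6 to 8 weeks were isolated by negative selection. They were activated through CD3 and CD28 with antibodies for 48 hours, then rested overnight. Treated cells then had 24 hours of culture with murine IL-21 (mIL-21, called WT in the labels) or with the computationally designed IL-21 mimic 21h10 (h10 in the labels). Control cells had no cytokine (unstimulated), and the labels give no culture time for them. Experiment 1 held an unstimulated control, with each cytokine at 100 pM and at 1 nM. Experiment 2 had a control of its own, with each cytokine at 10 nM and at 100 nM, so that dose range and experiment changed together and cannot be told apart. Every one of the 5 groups per experiment was sequenced in duplicate (n = 2). The study's methods describe RNA-seq replicates as separate preparations or donors, and the labels number them without naming the animals. The p-values measure the spread between these libraries.

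IL-21 binds its receptor together with the common γ chain and activates JAK1, JAK3 and, most strongly among the STAT proteins, STAT3. In CD4+ T cells STAT3 drives the type 17 program, in which transcription factors (among them RORα, the aryl hydrocarbon receptor and c-Maf) and the IL-23 receptor precede the cytokines IL-17A, IL-17F and IL-22. CD8+ T cells that make IL-17 are known as Tc17 cells and are usually rare after activation without polarising cytokines.

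Positions are those of RefSeq on GRCm38. Rora, which encodes the nuclear receptor RORα, lies on the plus strand of chromosome 9 from 68653404 to 69388246. Ahr (aryl hydrocarbon receptor, a ligand-activated factor) lies on the minus strand of chromosome 12 from 35497979 to 35534989, and Maf (c-Maf, a basic leucine zipper factor that acts on Il10) on the minus strand of chromosome 8 from 115703253 to 115706894. Il23r, the receptor subunit specific to IL-23, lies on the minus strand of chromosome 6 from 67422932 to 67491855. The neighbours Il17a and Il17f lie on chromosome 1, on the plus strand from 20730905 to 20734496 and on the minus strand from 20777146 to 20785274. Il22 lies on the plus strand of chromosome 10 from 118204584 to 118210047. Reads were counted on exons, and 3 models limit what the values mean. The Rora transcript of the files spans 1644 bases where the matching GENCODE transcript has 10878, so reads on the rest were not counted and its RPKM cannot be compared closely with that of another gene. The Maf transcript of the files spans 3642 bases where the matching GENCODE transcript has 6360, so the same limit holds for Maf. That GENCODE transcript shares 6.92% of its exonic bases with Gm15655, a gene of the opposite strand. Whether strand was used in counting is not given in the sources used here. Il22 and its copy Iltifb are 97.3% identical over 1111 bases, so their reads can be split between them.

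The promoters of the genes that stood out after 21h10 at 1 nM are shown because the 7 genes include a ROR factor. The sequences are RefSeq's for GRCm38.p6, each from 250 bases before to 50 after the start of a transcript, written 5′ to 3′ in the direction of the gene. Capitals mark every match to AGGTCA on either strand (TGACCT on the other), the core letters to which ROR factors bind.
Il23r promoter, chr6:67491806-67492105, minus strand: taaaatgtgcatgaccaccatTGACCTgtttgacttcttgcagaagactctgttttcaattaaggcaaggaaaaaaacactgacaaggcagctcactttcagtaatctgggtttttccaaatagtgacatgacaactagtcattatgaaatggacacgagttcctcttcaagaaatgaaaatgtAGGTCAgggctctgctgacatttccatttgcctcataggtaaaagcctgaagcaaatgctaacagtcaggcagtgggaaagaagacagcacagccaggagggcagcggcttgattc
Il17a promoter, chr1:20730655-20730954, plus strand: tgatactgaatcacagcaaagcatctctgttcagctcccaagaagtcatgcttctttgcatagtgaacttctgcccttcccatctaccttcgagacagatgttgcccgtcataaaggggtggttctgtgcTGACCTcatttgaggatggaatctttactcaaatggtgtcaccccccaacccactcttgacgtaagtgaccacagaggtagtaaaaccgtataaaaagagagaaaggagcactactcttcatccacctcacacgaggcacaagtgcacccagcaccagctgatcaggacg
Il17f promoter, chr1:20784221-20784520, minus strand: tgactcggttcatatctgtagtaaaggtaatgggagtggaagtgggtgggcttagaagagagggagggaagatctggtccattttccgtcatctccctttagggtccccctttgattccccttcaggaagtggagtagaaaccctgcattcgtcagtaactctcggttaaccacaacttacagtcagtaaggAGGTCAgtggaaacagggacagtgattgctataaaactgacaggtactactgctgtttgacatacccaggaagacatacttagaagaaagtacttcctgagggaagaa
Il22 promoter, chr10:118204714-118205013, plus strand: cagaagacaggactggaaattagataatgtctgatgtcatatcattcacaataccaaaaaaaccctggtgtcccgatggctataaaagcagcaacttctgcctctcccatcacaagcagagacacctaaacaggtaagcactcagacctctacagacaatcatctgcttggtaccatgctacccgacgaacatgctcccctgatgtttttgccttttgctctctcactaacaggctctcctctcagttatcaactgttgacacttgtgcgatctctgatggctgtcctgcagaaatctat
The core letters stand in the Il23r promoter at -229 and -66, counted from the start of the transcript to the first letter of the match, in that of Il17a at -120 and in that of Il17f at -58. They are absent from the windows of Il22 and Rora, and 16.3% of 32851 promoters of the same length hold them. The letters TTCNNNGAA of a STAT site are in none of the windows of these 5 genes and in 8.3% of all promoters. The AP-1 or BATF letters TGANTCA (7.81% of all promoters, either strand) occur in the Il17a window at -244, and the AHR core GCGTG (32.4% of all promoters, either strand) in that of Rora at -167. The windows of Rora, Il17f and Il22 start at a transcript inside the gene's span. A match is a run of letters and not a measured binding site. The promoter table matched 5 of the 7 genes, and Ahr and Maf are named only.

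Between 40317113 and 110876981 reads per library were mapped. Reads counted on genes came to 36829350 to 94079673 in experiment 1 and 27074399 to 43303144 in experiment 2, and 3 reads of a gene or fewer are treated as the floor of detection. Intervals and this floor cover counting error only. In these bulk samples a change in the number of cells of a type and a change in RNA per cell cannot be told apart. The libraries were those of CD8+ T cells by their markers, with a summed RPKM of Cd3e, Cd8a and Cd8b1 of 457 or more in each library. Among cells known for IL-17 or IL-22, the γδ T cell list had 1 of 3 markers measured, Sox13. It had 2 to 6 reads (0.0128 to 0.0265 RPKM) in the libraries given 21h10 at 1 nM. Unstimulated cells of experiment 1 had 7 to 8 reads (0.0179 to 0.0353 RPKM), so the ranges overlapped in RPKM. Zbtb16, a marker of NKT and MAIT cells, stood at 0.164 to 0.180 RPKM after 21h10 at 1 nM against 0.155 to 0.166 in unstimulated cells. The 3 markers of NK and innate lymphoid cells summed to 0.396 to 0.421 RPKM after 21h10 at 1 nM against 0.887 to 0.923 in unstimulated cells, with Ncr1 at 0 and 3 reads. Cd4 had 0.755 to 0.804 RPKM after 21h10 at 1 nM and 0.915 to 1.061 in unstimulated cells. The 3-gene CD4 list, however, summed to 10.96 to 12.7 against 5.75 to 5.77, since it holds Zbtb7b, which rose with each cytokine in experiment 1. B cell markers (3 genes) summed to 0.544 to 0.610 RPKM in unstimulated cells and 0.0480 to 0.0682 after 21h10 at 1 nM, with Ms4a1 at 0 there. The 4-gene myeloid list went from 0.184 to 0.268 up to 12.8 to 14.0 through Itgam, with Lyz2 at 0 and Csf1r at 2 reads in each library of 21h10 at 1 nM, and the part of these changes in the results was not tested.

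**Figure D1:**
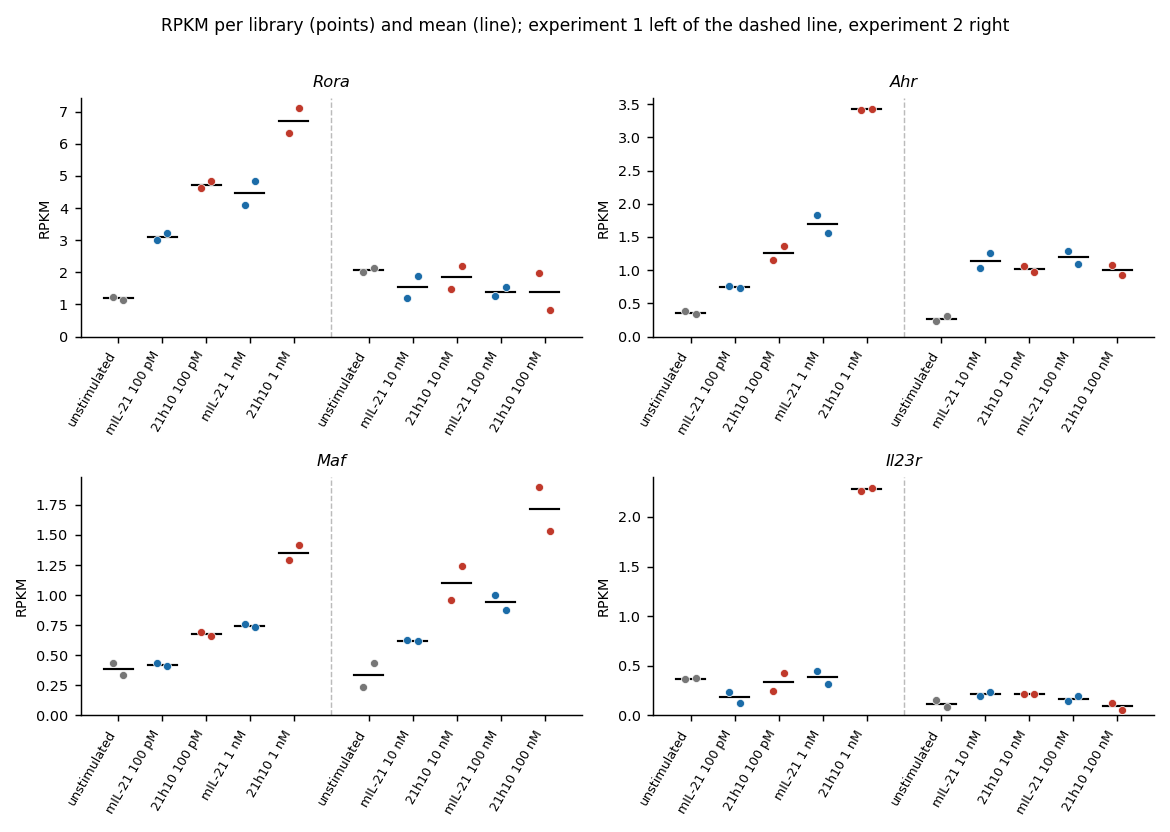
RPKM (vertical axes) of Rora, Ahr, Maf and Il23r in each library (points; grey unstimulated, blue mIL-21, red 21h10) with the mean of the duplicates (line), by group and experiment. Rora and Il23r were highest after 21h10 at 1 nM, Rora had group means of 1.40 to 2.08 RPKM in experiment 2, Ahr rose in both experiments, and Maf reached its highest mean, 1.71 RPKM, after 21h10 at 100 nM.

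The first comparison asks which of these genes changed with IL-21 receptor stimulation. In experiment 1 most genes did, so the shares of all tested genes past the threshold (edgeR's quasi-likelihood test, Benjamini-Hochberg adjusted p under 0.05) are the measure for any count. Rora and Ahr were higher than in unstimulated cells after mIL-21 at 100 pM, Il23r was lower, and Maf was not past the threshold, where 77.7% of 13974 tested genes were past it. Rora, Ahr and Maf were higher and Il23r was not past the threshold after 21h10 at 100 pM (81.6% of genes past it) and after mIL-21 at 1 nM (80.1%). After 21h10 at 1 nM all 4 were higher (80.3%). In experiment 2 Ahr and Maf were higher in each of the 4 treated groups and Rora and Il23r were past the threshold in none. The share of 13772 tested genes past it was 46.2% after mIL-21 at 10 nM, 50.1% after 21h10 at 10 nM, 46.2% after mIL-21 at 100 nM and 50.8% after 21h10 at 100 nM. The number of members past the threshold is thus read against a background of about that size, and the members differed from each other in the size and the dose pattern of the change.

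Rora had 227 and 119 reads in unstimulated cells of experiment 1, or 1.25 and 1.13 RPKM. It had 2.99 and 3.23 RPKM after mIL-21 at 100 pM, 4.62 and 4.84 after 21h10 at 100 pM, 4.10 and 4.84 after mIL-21 at 1 nM, and 6.33 and 7.11 after 21h10 at 1 nM. The unstimulated duplicates were lowest and those of 21h10 at 1 nM highest, with no overlap between neighbouring groups except mIL-21 at 1 nM beside 21h10 at 100 pM. Against unstimulated cells the log2 fold changes were 1.29 ± 0.13 (standard error) and 2.00 ± 0.12 for mIL-21 and 21h10 at 100 pM, and 1.94 ± 0.12 and 2.57 ± 0.12 at 1 nM, with BH-adjusted p = 8.06e-08 for the smallest and 9.82e-13 for the largest (edgeR). In experiment 2 unstimulated cells had 2.02 and 2.14 RPKM. The treated cells had 1.21 and 1.87 after mIL-21 at 10 nM, 1.49 and 2.19 after 21h10 at 10 nM, 1.26 and 1.54 after mIL-21 at 100 nM, and 1.97 and 0.832 after 21h10 at 100 nM. In RPKM 1 treated library, of 21h10 at 10 nM, lay above both unstimulated ones, and in the TMM-scaled CPM of the tests replicate 1 of 21h10 at 100 nM did so too. The log2 fold changes lay between -0.35 and 0.10, none past the threshold (BH-adjusted p = 0.392 to 0.807, edgeR), and the 95% confidence interval for mIL-21 at 10 nM ran from -0.92 to 0.41. Without replicate 1 of 21h10 at 100 nM, the value for that group was -0.998 (BH-adjusted p = 0.0317, edgeR).

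Ahr had 230 and 119 reads in unstimulated cells of experiment 1, or 0.378 and 0.337 RPKM. It rose to 0.760 and 0.736 after mIL-21 at 100 pM, 1.16 and 1.37 after 21h10 at 100 pM, 1.83 and 1.56 after mIL-21 at 1 nM, and 3.41 and 3.43 after 21h10 at 1 nM. No pair of neighbouring groups overlapped. The log2 fold changes against unstimulated cells were 0.97 ± 0.12, 1.84 ± 0.11, 2.26 ± 0.11 and 3.32 ± 0.10 in that order (BH-adjusted p = 1.1e-06 to 2.94e-15, edgeR). In experiment 2 unstimulated cells had 0.231 and 0.305 RPKM. The 8 treated libraries had 0.925 to 1.30 RPKM, all above the unstimulated ones and overlapping among themselves. The log2 fold changes were 2.27, 2.19, 2.38 and 2.21 for mIL-21 and 21h10 at 10 nM and mIL-21 and 21h10 at 100 nM, each ± 0.20 and with a BH-adjusted p of at most 2.19e-07 (edgeR).

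Maf had 175 and 79 reads in unstimulated cells of experiment 1, or 0.433 and 0.338 RPKM. After mIL-21 at 100 pM it stayed in that range, at 0.433 and 0.412, and it was 0.696 and 0.658 after 21h10 at 100 pM, 0.757 and 0.731 after mIL-21 at 1 nM and 1.29 and 1.42 after 21h10 at 1 nM. The log2 fold changes against unstimulated cells were 0.02 ± 0.17 (BH-adjusted p = 0.924, edgeR; 95% confidence interval -0.35 to 0.38), 0.79 ± 0.15, 0.95 ± 0.15 and 1.87 ± 0.14. In experiment 2 unstimulated cells had 0.236 and 0.435 RPKM. The values were 0.624 and 0.615 after mIL-21 at 10 nM, 0.960 and 1.24 after 21h10 at 10 nM, 0.998 and 0.880 after mIL-21 at 100 nM, and 1.90 and 1.53 after 21h10 at 100 nM. Each treated group lay above unstimulated cells, with log2 fold changes of 1.06 ± 0.27, 1.99 ± 0.27, 1.71 ± 0.27 and 2.65 ± 0.26. The first of these had BH-adjusted p = 0.00469 (edgeR) and was not past the threshold without replicate 1 of the unstimulated cells (0.65, BH-adjusted p = 0.0651, edgeR).

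**Figure D2:**
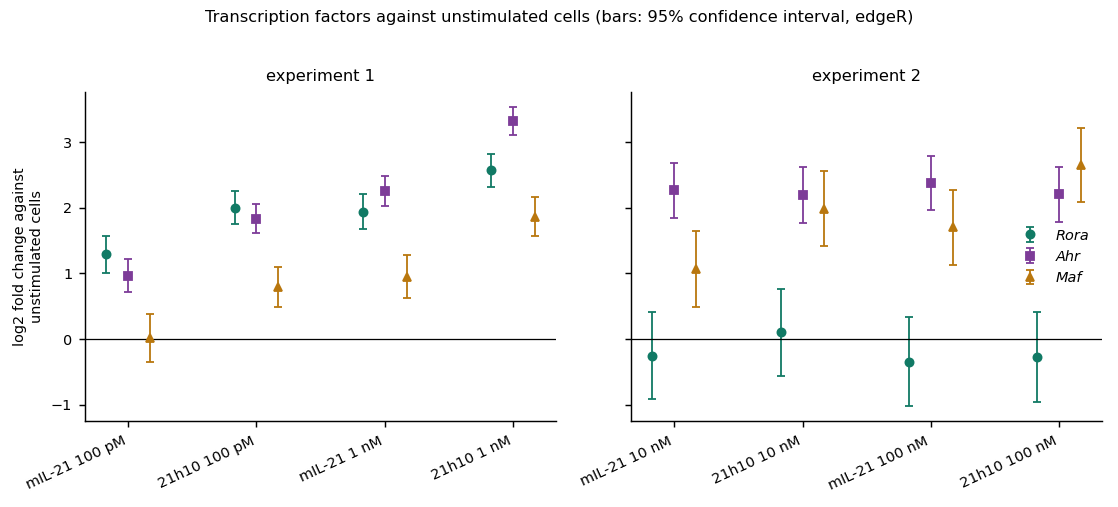
Log2 fold change against unstimulated cells of the same experiment (vertical axis, shared) for Rora, Ahr and Maf in each treated group, with 95% confidence intervals from edgeR. Rora stood at 1.29 to 2.57 in experiment 1 and at -0.35 to 0.10 in experiment 2, where Ahr stood at 2.19 to 2.38 and Maf at 1.06 to 2.65.

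Il23r had 100 and 60 reads in unstimulated cells of experiment 1, or 0.363 and 0.375 RPKM. It had 0.239 and 0.128 after mIL-21 at 100 pM, 0.244 and 0.424 after 21h10 at 100 pM and 0.450 and 0.313 after mIL-21 at 1 nM. After 21h10 at 1 nM it had 249 and 366 reads, or 2.27 and 2.29 RPKM. Only that group stood above the unstimulated cells without overlap, and only mIL-21 at 100 pM below them. The log2 fold change was 2.71 ± 0.19 after 21h10 at 1 nM (BH-adjusted p = 4.52e-10, edgeR) and -1.05 ± 0.30 after mIL-21 at 100 pM (BH-adjusted p = 0.00427, edgeR), the latter not past the threshold without replicate 2 of that group (-0.72, BH-adjusted p = 0.0653, edgeR). The values of 21h10 at 100 pM (-0.06 ± 0.23) and of mIL-21 at 1 nM (0.07 ± 0.26) were not past the threshold. In experiment 2 Il23r had 6 to 34 reads per library (0.0589 to 0.237 RPKM) and 19 and 9 in unstimulated cells, and it passed the filter through 3 of the treated groups. The log2 fold changes of the 4 treated groups, 1.04, 1.13, 0.72 and -0.03, had standard errors of 0.55 to 0.61 and were not past the threshold.

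Il17a, which encodes IL-17A, had 17 and 11 reads in unstimulated cells of experiment 1, 10 and 4 after mIL-21 at 100 pM, 14 and 31 after 21h10 at 100 pM, 21 and 19 after mIL-21 at 1 nM, and 347 in the 2 libraries of 21h10 at 1 nM together. The last group, at 2.69 and 2.77 RPKM, lay above all others, the next highest library being at 0.386 RPKM. Its log2 fold change against unstimulated cells was 4.38 ± 0.25 (BH-adjusted p = 2.1e-11, edgeR). After mIL-21 at 1 nM the value was 1.32 ± 0.36 (BH-adjusted p = 0.00294, edgeR), and at 100 pM neither cytokine was past the threshold (-0.25 ± 0.46 with mIL-21 and 0.69 ± 0.35 with 21h10). Il17a passed the filter on low counts through its reads with either cytokine at 1 nM and after 21h10 at 100 pM.

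Il17f, the neighbouring gene that encodes IL-17F, had 4 reads in each unstimulated library of experiment 1, 3 and 1 after mIL-21 at 100 pM, 3 and 13 after 21h10 at 100 pM, 1 and 6 after mIL-21 at 1 nM, and 50 and 64 after 21h10 at 1 nM. The group given 21h10 at 1 nM, with 0.961 and 0.846 RPKM, was the one clearly above the floor in both libraries. Its 114 reads against 8 in unstimulated cells made a ratio per counted read of 23.3 (95% exact interval 11.4 to 55.2, counting error only). Per length, Il17a stood above Il17f in both libraries of that group.

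Il22, which encodes IL-22, had 5 and 4 reads in unstimulated cells of experiment 1, 0 and 1 after mIL-21 at 100 pM, 2 and 0 after 21h10 at 100 pM, 8 and 7 after mIL-21 at 1 nM, and 35 and 45 after 21h10 at 1 nM. Both 100 pM groups were at the floor, and the group given 21h10 at 1 nM (0.729 and 0.645 RPKM) lay above all others. The 80 reads of that group against 9 in unstimulated cells made a ratio per counted read of 14.5 (95% exact interval 7.28 to 32.9). The near-identical Iltifb had 17 and 10 reads after 21h10 at 1 nM and 0 to 4 in the other libraries of experiment 1. After mIL-21 at 1 nM the log2 fold change of Il22 was 1.52 ± 0.68 (BH-adjusted p = 0.0482, edgeR), and it was not past the threshold with DESeq2 (BH-adjusted p = 0.0710), with library sizes from mapped reads (0.0516), without a filter (0.0742), or without any 1 of 8 libraries of the fit (1.28 to 1.70, 0.0520 to 0.208). Il17f and Il22 entered the test only through their reads after 21h10 at 1 nM, so that they had to differ there, and their values against that group are descriptions without a test.

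In experiment 2 the 3 cytokine genes failed the filter and were not tested. Il17a had 8 and 1 reads in unstimulated cells and 0 to 5 in the treated libraries, 28 reads over the 10 libraries. Il17f had 0 reads in both unstimulated libraries and 11 in all, 6 of them in 1 library of 21h10 at 10 nM. Il22 had 57 reads in all, with 2 and 1 in unstimulated cells, 9 and 11 after mIL-21 at 10 nM, 6 and 15 after 21h10 at 10 nM, 3 in each library of mIL-21 at 100 nM, and 5 and 2 after 21h10 at 100 nM. For each of these genes the treated libraries of experiment 2 lay below those of 21h10 at 1 nM in experiment 1. In counts per total of gene reads, scaled to CPM, Il17a stood at 3.80 (95% exact interval 3.41 to 4.22) after 21h10 at 1 nM and at 0.0347 (0.00420 to 0.125) after 21h10 at 100 nM, where the experiment changed with the dose.

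**Figure D3:**
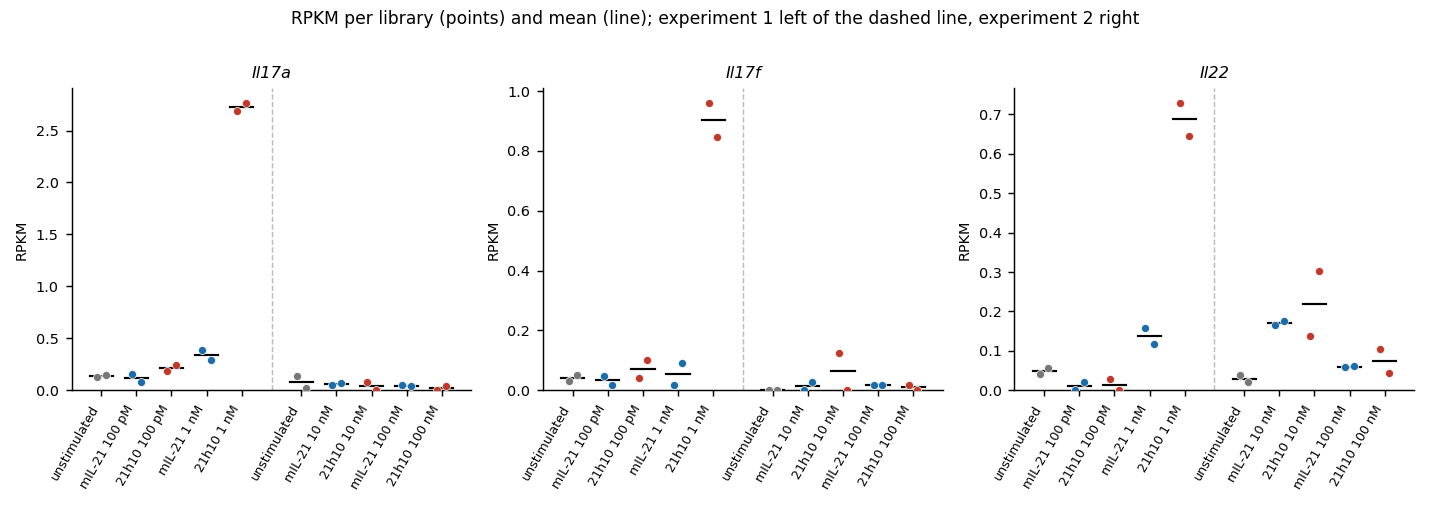
RPKM (vertical axes) of Il17a, Il17f and Il22 in each library (points; grey unstimulated, blue mIL-21, red 21h10) with the mean of the duplicates (line). The mean after 21h10 at 1 nM was 2.73 RPKM for Il17a, 0.903 for Il17f and 0.687 for Il22, and every other library was at or below 0.386.

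The next comparison asks whether the cytokines differed at the same dose. At 100 pM Rora (0.71 ± 0.11), Ahr (0.87 ± 0.10), Maf (0.77 ± 0.16) and Il23r (0.99 ± 0.30) were higher with 21h10 than after mIL-21 on the log2 scale, where 38.6% of all tested genes were past the threshold and 19.6% of all tested genes were higher. Il23r had BH-adjusted p = 0.0154 (edgeR) and was not past the threshold without replicate 2 of mIL-21 at 100 pM (0.66) or of 21h10 at 100 pM (0.51), nor with limma on log2(RPKM + 1) or log2(RPKM + 0.1). Il17a was 0.94 ± 0.42 with BH-adjusted p = 0.0893 (edgeR), and Il17f (1.22 ± 0.83) was also not past the threshold. At 1 nM the same 4 genes and Il17a were higher with 21h10, where 37.7% of all tested genes were past the threshold and 19.6% of all tested genes were higher.

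The differences at 1 nM were 0.63 ± 0.11 for Rora, 1.07 ± 0.09 for Ahr and 0.92 ± 0.14 for Maf on the log2 scale. They were larger for the receptor and the cytokines, at 2.64 ± 0.21 for Il23r (BH-adjusted p = 2.72e-08, edgeR) and 3.06 ± 0.24 for Il17a (BH-adjusted p = 2.07e-08, edgeR). For Il17a the 347 reads with 21h10 against 40 with mIL-21 made a ratio per counted read of 7.86 (95% exact interval 5.65 to 11.2). Il17f (114 against 7 reads, ratio 14.8, interval 6.93 to 37.5) and Il22 (80 against 15 reads, ratio 4.83, interval 2.76 to 9.03) had more reads with 21h10 in both libraries, given as a description since both genes entered the test through this group alone. For each of the 7 genes both libraries after 21h10 at 1 nM lay above both after mIL-21 at 1 nM.

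At 10 nM none of the 4 tested genes was past the threshold, where 0.00726% of 13772 genes were (1 gene, and 1208 at an unadjusted p under 0.05). Maf was at 0.93 ± 0.25 (unadjusted p = 0.00183, BH-adjusted p = 0.414, edgeR), with both libraries of 21h10 above both of mIL-21, and passed the threshold with the compared groups fitted alone (BH-adjusted p = 0.0296) and without a filter (0.00494). At 100 nM Maf was past it, at 0.94 ± 0.24 (BH-adjusted p = 0.0219, edgeR), where 8.52% of all tested genes were and 4.01% of all tested genes were higher. That call was lost when any of the 4 compared libraries was left out (0.80 to 1.06, BH-adjusted p = 0.0607 to 0.142). Ahr, at -0.07 (95% confidence interval -0.44 to 0.30) at 10 nM and -0.17 (-0.54 to 0.20) at 100 nM, and Rora, at 0.36 and 0.08, showed no difference past the threshold. The fitted difference of Maf lay between 0.77 and 0.94 at the 4 doses, and that of Rora between 0.08 and 0.71.

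**Figure D4:**
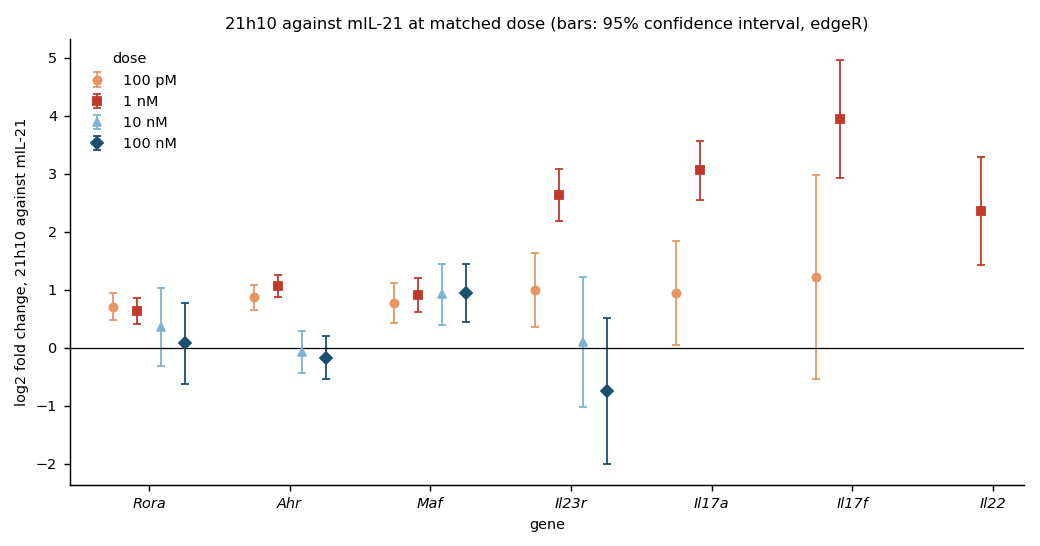
Log2 difference between 21h10 and mIL-21 (vertical axis, 21h10 over mIL-21) for each gene and matched dose, with 95% confidence intervals from edgeR. Values that could not be tested in experiment 2, and that of Il22 at 100 pM, where both groups were at the floor, are left out. The values at 1 nM run from 0.63 for Rora to 3.06 for Il17a among the 5 genes read as tests, and those of Il17f and Il22 are fitted values shown as a description.

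Dose steps within a cytokine were compared next. From 100 pM to 1 nM of mIL-21, Rora (0.65 ± 0.12), Ahr (1.29 ± 0.10), Maf (0.93 ± 0.17), Il23r (1.12 ± 0.32) and Il17a (1.57 ± 0.42) rose on the log2 scale, where 34.5% of genes were past the threshold. The calls of Il23r and Il17a were lost without replicate 2 of mIL-21 at 100 pM (0.78 and 1.21), the library with 14 and 4 reads of these genes, and that of Il23r also without replicate 1 of mIL-21 at 1 nM (0.88). Il22 went from 0 and 1 reads to 8 and 7 and was past the threshold, which it was not without replicate 1 of either group, and Il17f (0.84 ± 0.97) was not. For 21h10 the same step gave 0.57 ± 0.10 for Rora, 1.49 ± 0.09 for Ahr, 1.08 ± 0.13 for Maf, 2.77 ± 0.19 for Il23r and 3.69 ± 0.23 for Il17a, each past the threshold, as were 39.2% of genes. Il17f went from 16 reads to 114, a ratio per counted read of 11.3 (95% exact interval 6.67 to 20.4). Il22 went from 2 reads to 80, a ratio per counted read of 63.5 (95% exact interval 17 to 533).

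From 10 nM to 100 nM of mIL-21 no member was past the threshold in edgeR's test, where 0% of genes were (361 at an unadjusted p under 0.05). The same step of 21h10 gave none either, against 5.33% of genes. Maf had the largest values of the 4 tested genes upward, at 0.64 ± 0.25 with mIL-21 and 0.66 ± 0.24 with 21h10 (unadjusted p = 0.0201 and 0.013, BH-adjusted p = 0.989 and 0.128, edgeR). Without either unstimulated library, without a filter or with the compared groups alone, the value of Maf for 21h10 passed the threshold (BH-adjusted p = 0.0305 to 0.0375).

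21h10 at 100 pM was then set against mIL-21 at a 10-fold higher dose, 1 nM. Of the members Ahr was past the threshold, lower with 21h10 by -0.42 ± 0.09 (BH-adjusted p = 0.0389, edgeR), where 0.737% of genes were (103 genes). Its duplicates did not overlap, but the call was lost with limma, with the compared groups alone and without any of several libraries, including replicate 1 of mIL-21 at 1 nM (-0.33, BH-adjusted p = 0.244, edgeR). The differences of Rora (0.06, 95% confidence interval -0.16 to 0.28), Maf (-0.16, -0.46 to 0.14), Il23r (-0.13) and Il17a (-0.63) were not past it. Il22 had 2 and 0 reads after 21h10 at 100 pM and 8 and 7 after mIL-21 at 1 nM (BH-adjusted p = 0.114, edgeR).

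Whether the difference between the cytokines changed with dose was tested as an interaction. Between 100 pM and 1 nM the difference grew by 2.12 ± 0.56 for Il17a (BH-adjusted p = 0.013, edgeR) and by 1.65 ± 0.40 for Il23r (BH-adjusted p = 0.00801, edgeR) on the log2 scale, where 18.4% of all tested genes were past the threshold and 8.34% of all tested genes were so upward. Both calls were lost without replicate 1 of mIL-21 at 100 pM (1.49 and 1.11). For Rora (-0.08 ± 0.15), Ahr (0.20 ± 0.14) and Maf (0.15 ± 0.22) the interaction was not past the threshold, though that of Ahr was with limma on log2(RPKM + 1) (0.35, BH-adjusted p = 0.0444). Nor was it past the threshold for Il17f (2.73 ± 1.23, BH-adjusted p = 0.143, edgeR) or for Il22, which had both 100 pM groups at the floor. Between 10 nM and 100 nM none of the 4 tested genes was past it, where 0.922% of genes were.

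The response to cytokine, averaged over the 4 treated groups and taken relative to the control of the same experiment, was compared between experiments in a fit of all 20 libraries. The response of Rora was lower in experiment 2 by -2.20 ± 0.28 on the log2 scale (BH-adjusted p = 5.28e-07, edgeR), and that of Maf was higher by 0.88 ± 0.26 (BH-adjusted p = 0.00606, edgeR), where 64.7% of 14530 genes were past the threshold. Ahr differed by 0.11 ± 0.19 and Il23r by 0.24 ± 0.43, neither past it. With limma on log2(RPKM + 1) the sign of Ahr turned, at -0.23 (BH-adjusted p = 0.0382). Il17a, at -2.36 ± 0.91, entered this fit through its reads in experiment 1 alone, so the value is a description. It rests on 8 and 1 reads in the unstimulated libraries of experiment 2 and was -0.41 without the first of them. The call of Maf was lost without replicate 1 of the unstimulated cells of either experiment (0.64 and 0.46). For Rora the unstimulated level also stood higher in experiment 2, at 2.08 RPKM against 1.19, and its response differed past the threshold in every alternative run.

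The other genes of the pathway were taken from lists drawn up with earlier results of these data known. Of 8 type 17 co-factors 7 were higher and 1 lower with 21h10 than after mIL-21 at 1 nM (median log2 fold change 0.50), with Irf4 at 0.90, Batf at 0.76 and Nfkbiz at 0.58. Of the 10 genes of STAT3 input (receptor chains, JAK kinases and Stat3) 5 were higher and 2 lower (median 0.16). They included Il6ra, the IL-6 receptor chain, at 1.45 and Il6st at 0.54. At 100 pM, Il21r was higher at 0.60 and Stat3 at 0.54. Between 100 pM and 1 nM the Stat3 difference changed by -0.19 ± 0.06 (BH-adjusted p = 0.0406, edgeR). The direction in these lists did not hold at every dose. At 100 nM Il6ra (-1.57, BH-adjusted p = 1.3e-07, edgeR), Nfkbiz (-1.12), Il2rg (-0.27) and Jak1 (-0.25) were lower with 21h10 than after mIL-21. Batf (0.69), Runx1 (0.64) and Il12rb1 (0.60) were higher there. Over all 13974 genes tested at 1 nM the median was -0.01, and 37.7% were past the threshold, 19.6% higher and 18.1% lower.

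Of 9 tested type 17 surface and secreted genes 2 were higher and 1 lower with 21h10 than after mIL-21 at 1 nM, led by Il1r1, the IL-1 receptor, at 3.42 (BH-adjusted p = 2.9e-12, edgeR). Il1r1 had 0.139 RPKM in unstimulated cells, 0.414 after mIL-21 at 1 nM and 4.32 after 21h10 at 1 nM. Unlike Il23r it also rose in experiment 2, to 1.79 to 3.23 RPKM from 0.0666, with log2 fold changes of 5.05 to 5.81. At 100 nM, however, Il1r1 was lower with 21h10 than after mIL-21, by -0.57 ± 0.13 (BH-adjusted p = 0.0099, edgeR). Of 3 cytokines linked to c-Maf 2, Il10 and Il21 (which is also on the surface and secreted list), were higher after 21h10 than after mIL-21 at each dose of experiment 1. Il21 fell by -2.03 against unstimulated cells after mIL-21 at 100 pM (BH-adjusted p = 1.6e-06, edgeR). The difference of 21h10 from mIL-21 at that dose, 1.36, was smaller than this fall, so Il21 was less reduced rather than raised. Il10, a known c-Maf target, had 0.309 RPKM in unstimulated cells of experiment 1, 7.67 after mIL-21 at 1 nM and 47.4 after 21h10 at 1 nM, and 24.2 to 36.8 in the treated groups of experiment 2. With 21h10 it exceeded mIL-21 by a log2 fold change of 3.05 at 100 pM, 2.67 at 1 nM and 0.68 at 100 nM (BH-adjusted p = 0.00043, edgeR). Maf also was past the threshold at 100 nM, a call lost when any compared library was left out. The Il10 difference at 100 nM was larger than at 10 nM by 0.82 ± 0.14 (BH-adjusted p = 0.0075, edgeR). That is more than the whole difference at 100 nM, so Il10 was not higher with 21h10 at 10 nM. Maf stood at 0.93 ± 0.25 at 10 nM, not past the threshold.

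Of 4 tested AHR target genes 1, Tiparp, a feedback inhibitor of AHR, was higher with 21h10 than after mIL-21 at each dose of experiment 1 (0.96 and 0.73), and none was lower. Tiparp rose from 3.07 RPKM in unstimulated cells to 38.9 after 21h10 at 1 nM, a log2 fold change of 3.75, and by 1.38 to 1.60 in experiment 2. Cyp1a1, the classical AHR target, had 19 reads in each library of 21h10 at 1 nM and 3 to 8 in unstimulated cells. Nqo1 fell by 1.71 there. Of 7 clock genes with ROR elements 3 were higher and 1 lower at 1 nM, with Nfil3 at 0.78. Nr1d1, the REV-ERBα gene, fell against unstimulated cells in both experiments, by 2.19 after 21h10 at 100 pM and by 1.96 after 21h10 at 10 nM. Of 8 tested opponents of the type 17 program 5 were higher and 2 lower at 1 nM, with Socs3, the inhibitor of STAT3 signalling, at 1.09 and Stat5a, a STAT that competes with STAT3, at 1.23. Eomes was lower after 21h10 at 1 nM (-0.75) and higher at 100 nM (2.32), and the shares of these lists past the threshold are set against 37.7% of genes at 1 nM and 8.52% at 100 nM.

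**Figure D5:**
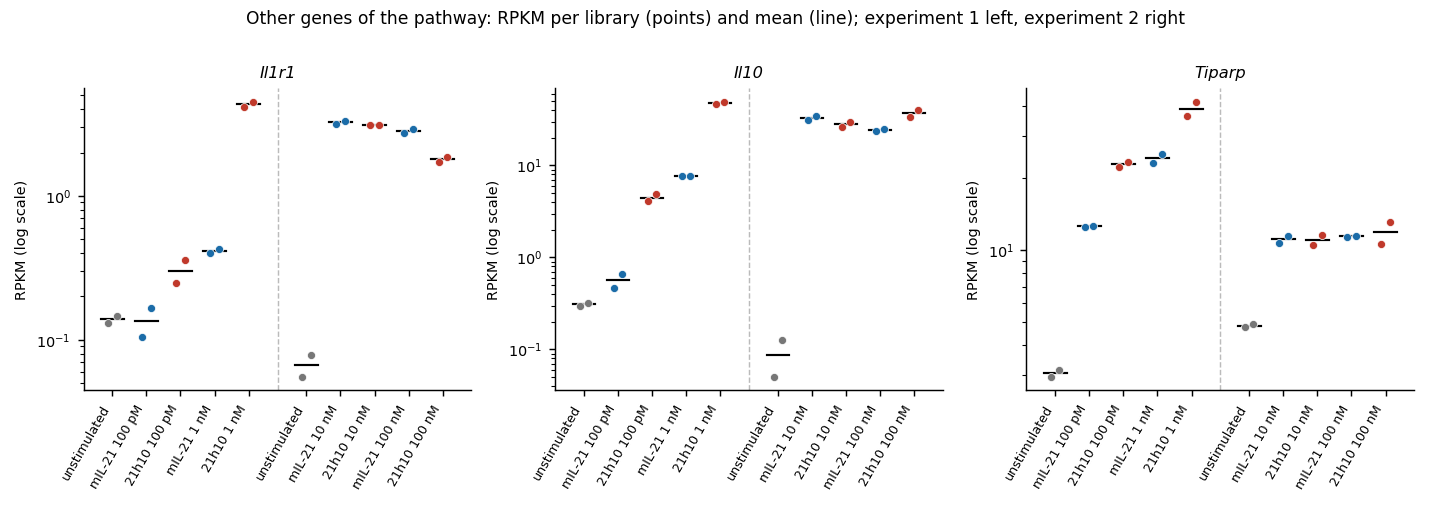
RPKM (vertical axes, log scale) of Il1r1, Il10 and Tiparp in each library (points; grey unstimulated, blue mIL-21, red 21h10) with the mean of the duplicates (line). All 3 had their highest mean after 21h10 at 1 nM, and in experiment 2 Il1r1 had a mean of 1.79 to 3.23 and Il10 of 24.2 to 36.8 in the treated groups.

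The members were also compared with each other by the Pearson correlation of log2 CPM over the 10 libraries of an experiment, given as a description since the libraries share groups and depth. In experiment 1 it was 0.97 for Il17a with Il23r, 0.93 for Il17a with Il17f, 0.95 for Ahr with Maf and 0.95 for Rora with Ahr. In experiment 2 it was 0.80 for Ahr with Maf and -0.23 for Rora with Ahr. Among 11134 genes with a mean CPM of at least 1 in both experiments, those most like Ahr were Picalm (0.996 and 0.993 in experiments 1 and 2), P2ry14 (0.989 and 0.989) and Chsy1 (0.992 and 0.989). Most like Maf were Ptpn2 (0.979 and 0.972), Cdk6 (0.972 and 0.955) and Srgn (0.982 and 0.955). Rora had 3110040N11Rik (0.924 and 0.860), Ghdc (0.844 and 0.842) and Zbtb20 (0.937 and 0.824) as its closest genes, and Il23r had Rnh1 (0.871 and 0.860), Rrad (0.899 and 0.844) and Gosr2 (0.948 and 0.843).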

How the data were processed

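RNA-sequencing data of 20 libraries were used. The authors aligned reads with TopHat 2.0.11 to mm10 and counted exonic reads per RefSeq transcript. The deposited values are raw read counts and, beside them, RPKM computed by the authors. The counting tool, its strand setting and the annotation version are not given in the sources used here.

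For each gene symbol the longest transcript was used. Counts were tested with edgeR 4.0.16 in R 4.3.3 (TMM scaling, filterByExpr with a minimum count of 10 and a total of 15, quasi-likelihood F-test, two-sided, Benjamini-Hochberg adjusted p under 0.05 over all tested genes) within each experiment, all 10 libraries in 1 fit without a replicate block. A fit of all 20 libraries compared the experiments. RPKM served to show levels per length. Ratios of low counts have exact 95% intervals. Duplicates differed by more than sampling noise. Alternatives were DESeq2 1.42.0, limma 3.58.1 on log2 RPKM with a pseudocount of 1 or 0.1, no filter, mapped-read library sizes, the most-read transcript, compared groups alone, a replicate block and leaving out each library.

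The 7 genes and all lists were chosen with earlier results of these data known. The text names all 7 genes and, of each list, at most 4 called genes with the largest change in a family of comparisons, besides Cyp1a1 and genes named for a second value. The scripts were tested on simulated data.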

Additional observations from a re-analysis of the deposited data

Results flagged for a closer look

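Between 100 pM and 1 nM the difference of 21h10 from mIL-21 changed by 2.12 on the log2 scale for Il17a and by 1.65 for Il23r, both past the threshold of the interaction test in edgeR. Neither was past it without replicate 1 of mIL-21 at 100 pM. Between the experiments the response to cytokine differed by -2.20 for Rora, by 0.88 for Maf and by -2.36 for Il17a, in the fit of all 20 libraries. Without replicate 1 of the unstimulated cells of experiment 2, Maf was 0.46 and Il17a -0.41, neither past the threshold, and the same held without replicate 1 of those of experiment 1 (0.64 and -2.30). Il17a entered this fit through its reads in experiment 1 alone, and its value rests on 9 reads in the unstimulated cells of experiment 2. Dose range and experiment changed together and cannot be told apart in these 3 values.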

How the results depend on the processing

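Of 57 results past the threshold, 13 lost it in 34 of 600 fits that left out 1 library and 6 lost it in 13 of 435 fits with another setting. Of 56 that were not past it, some passed it in 4 of the former and 6 of the latter. The response of Ahr between experiments turned to -0.23 with limma on log2(RPKM + 1). The counts that follow are of calls, each 1 gene in 1 comparison. Between the cytokines in experiment 2 their number went from 1 (Maf at 100 nM) to 2 without a filter and with the compared groups alone. The added call was Maf at 10 nM. With limma on log2(RPKM + 0.1) the number went to 0. Between doses in experiment 2 it went from 0 to 1 without a filter and with the compared groups alone. For 21h10 at 100 pM against mIL-21 at 1 nM it went from 1 to 2 without a filter, and to 0 with limma at either pseudocount, with the compared groups alone and with the replicate block.

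Leaving out 1 library gave 16 to 19 calls (18 with all libraries) against unstimulated cells in experiment 1 and 7 to 10 (8) in experiment 2. It gave 10 to 11 (11) and 0 to 1 (1) between the cytokines, 11 to 13 (13) and 0 to 1 (0) between doses, 0 to 1 (1) for 21h10 at 100 pM against mIL-21 at 1 nM, 0 to 2 (2) for the interactions and 1 to 3 (3) between experiments. These counts include Il17f and Il22 in experiment 1, and Il17a between experiments, where the report gives their values as descriptions.

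The duplicate numbers did not pair the libraries: correlations of their deviations were -0.0617 to 0.0293 in experiment 1 and -0.167 to 0.227 in experiment 2, where 3 of 10 pairs were over 0.1. With the replicate block there were 17 calls against unstimulated cells in experiment 1, Il22 with mIL-21 at 1 nM being the one lost, and Ahr for 21h10 at 100 pM against mIL-21 at 1 nM had -0.42 (BH-adjusted p = 0.0646, edgeR). The other counts did not move. Library sizes from mapped reads shifted log2 fold changes against unstimulated cells in experiment 2 by -0.30 to -0.17, which turns the value of Rora with 21h10 at 10 nM below 0. Il17f, Il22 and, in experiment 2, Il17a and Il23r rest on few reads, with 6 to 34 per library for Il23r, which limits the precision of their values. The fit of all 20 libraries has no version with the compared groups alone.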
